A study of Mus musculus with 7 samples.

Results

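The genes described here are 47 cell cycle and DNA replication genes: 13 that act in G1 and at the entry into S phase, 14 that license origins, replicate DNA or guard its replication, and 20 that act from the G2 checkpoint through mitosis. They were taken by name, as the probe sets whose gene symbol is one of the 47, and the rule uses no measured value, although the list was drawn up with earlier results of these data known. Of the 47 genes, 45 had a testable value, among 16353 genes tested in all. The cells were J-1 mouse embryonic stem cells infected with a lentivirus that expressed a short hairpin RNA. The control hairpin targeted luciferase, a gene that mouse cells lack, in 3 samples. Hairpin 1 against Mettl3 was expressed in 2 samples, and hairpin 2, a separate hairpin against the same gene, in 2 more. Mettl3 encodes the catalytic subunit of the enzyme complex that places N6-methyladenosine, m6A, on RNA. All 7 samples shared the line, the lentiviral infection and growth in full medium, and total RNA of each was hybridised to 1 Mouse Exon 1.0 ST array, which carries separate probe sets for separate exons. The labels number the replicates but do not say whether they were separate infections, so the p-values rest on variation among these 7 arrays alone, part of which may be technical.

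The cell cycle is driven by cyclin-dependent kinases, whose cyclin partners appear and are destroyed in turn. Cyclin D with Cdk4 or Cdk6, and then cyclin E with Cdk2, phosphorylate the retinoblastoma protein Rb1, which releases E2F transcription factors and so the genes for DNA replication. Mitotic genes form a later wave, in which the DREAM complex, B-Myb and FoxM1 act through a CHR element near the start site. Such promoters often hold CCAAT boxes as well. Embryonic stem cells are known for a short G1 phase and for high cyclin-dependent kinase activity through much of the cycle.

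The promoters of the members were searched for the words of both waves. RefSeq promoter windows of 300 bases, 250 before and 50 after the annotated start on build GRCm38.p6, matched 37 of the 47 members by symbol. An E2F site was searched as TTTCGCGC, TTTGGCGC, TTTCCCGC or TTTGCCGC, the CHR element as TTTGAA, a CHR variant as TTTAAA, and the CCAAT box as CCAAT, all on both strands. E2F words on opposite strands can overlap, as they do in Mcm6. A gene counted once if any of its windows held the word. An E2F word was present in 4 of 9 G1/S genes (44.4%), 6 of 12 replication genes (50%) and 1 of 16 mitotic genes (6.25%), against 2.6% of 27025 genes with a promoter. The CHR word was present in 11 of 16 mitotic genes (68.8%), 2 of 9 G1/S genes (22.2%) and 1 of 12 replication genes (8.33%), against 20.2% of all genes. The CHR word and a CCAAT box occurred together in 11 of 16 mitotic genes (68.8%), against 7.97% of all genes. The pair was in 2 of 9 G1/S genes (22.2%) and 1 of 12 replication genes (8.33%). All 14 members with the CHR word thus held a CCAAT box, mitotic or not. The CCAAT box alone was found in 15 of 16 mitotic genes (93.8%), 8 of 12 replication genes (66.7%), 5 of 9 G1/S genes (55.6%) and 41.1% of all genes. The CHR variant was found in 5 of 16 mitotic genes (31.2%), 2 of 12 replication genes (16.7%), 1 of 9 G1/S genes (11.1%) and 14.9% of all genes. A match is a run of letters and not a measured binding site. No promoter of Aurkb, Ccna2, Ccnd1, Ccnd2, Ccne2, Cdc25c, Gmnn, Mcm4, Rb1 or Wee1 was matched.

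**Figure D1:**
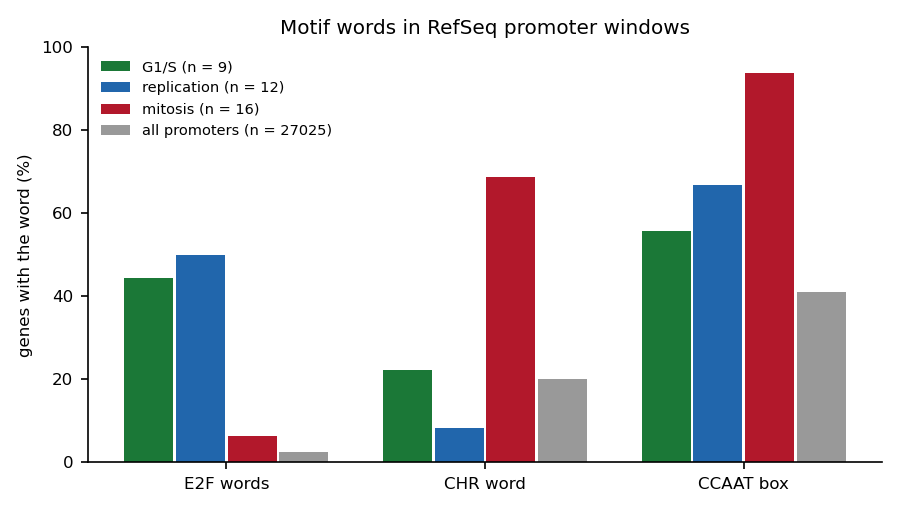
Share of genes (%) whose RefSeq promoter window held an E2F word, the CHR word or a CCAAT box, for G1/S, replication and mitotic genes and for all genes with a promoter. E2F words stood at 44.4% and 50% in the G1/S and replication genes, and the CHR word at 68.8% in the mitotic genes.

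The windows of 2 replication genes and 3 mitotic genes are printed from 5′ to 3′ on the strand of the gene, with the matched words in capitals, because they carry the words of each wave and belong to genes whose array values follow. Mcm3 (chr1:20820263-20820562, minus strand) and Mcm6 (chr1:128359656-128359955, minus strand) encode subunits of the replicative helicase. Mcm3 held 2 E2F words, at positions 270 and 289 of the window, and Mcm6 held 3, at positions 141, 145 and 204.
Mcm3: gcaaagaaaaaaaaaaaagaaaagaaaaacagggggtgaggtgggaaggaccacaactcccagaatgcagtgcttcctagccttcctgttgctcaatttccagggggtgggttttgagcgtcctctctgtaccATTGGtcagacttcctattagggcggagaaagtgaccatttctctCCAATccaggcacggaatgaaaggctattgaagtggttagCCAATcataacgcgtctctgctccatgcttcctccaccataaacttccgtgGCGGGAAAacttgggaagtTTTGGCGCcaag
Mcm6: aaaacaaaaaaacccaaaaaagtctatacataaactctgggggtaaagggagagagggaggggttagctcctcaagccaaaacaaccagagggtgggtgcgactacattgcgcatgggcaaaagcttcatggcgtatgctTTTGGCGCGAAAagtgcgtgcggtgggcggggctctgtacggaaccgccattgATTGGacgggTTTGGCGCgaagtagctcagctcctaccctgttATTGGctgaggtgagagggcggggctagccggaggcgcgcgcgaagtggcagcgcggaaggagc
Bub1b (chr2:118597961-118598260, plus strand) encodes the spindle checkpoint kinase BubR1, Top2a (chr11:99024140-99024439, minus strand) the topoisomerase that untangles sister chromatids, and Kif23 (chr9:61946750-61947049, minus strand) a kinesin of the central spindle in cytokinesis. The CHR word lay at position 291 in Bub1b and at 253 in Kif23, and Top2a held it at positions 72 and 228.
Bub1b: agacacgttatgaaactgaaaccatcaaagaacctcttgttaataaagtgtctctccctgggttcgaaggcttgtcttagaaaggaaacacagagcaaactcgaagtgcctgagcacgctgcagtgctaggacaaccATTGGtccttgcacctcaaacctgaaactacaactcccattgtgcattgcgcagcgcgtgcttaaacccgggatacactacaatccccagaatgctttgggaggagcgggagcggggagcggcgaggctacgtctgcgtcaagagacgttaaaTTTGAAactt
Top2a: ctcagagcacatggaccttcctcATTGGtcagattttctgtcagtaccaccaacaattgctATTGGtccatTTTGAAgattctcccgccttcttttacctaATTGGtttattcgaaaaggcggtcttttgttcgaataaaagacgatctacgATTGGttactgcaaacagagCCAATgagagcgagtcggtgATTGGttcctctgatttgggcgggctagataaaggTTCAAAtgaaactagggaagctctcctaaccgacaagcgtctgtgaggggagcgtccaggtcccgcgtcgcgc
Kif23: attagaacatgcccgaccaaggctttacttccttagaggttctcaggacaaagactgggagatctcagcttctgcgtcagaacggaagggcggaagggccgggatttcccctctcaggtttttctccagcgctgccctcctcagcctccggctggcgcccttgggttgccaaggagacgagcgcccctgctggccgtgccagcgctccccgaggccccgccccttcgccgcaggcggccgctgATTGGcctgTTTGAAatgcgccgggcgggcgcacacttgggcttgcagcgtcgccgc

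Each gene was given 1 value per array, the median log2 value of those of its probe sets whose mean level exceeded that of a median probe set. A difference of 1 is a doubling of signal. The targeted gene was checked first. Mettl3 was 10.38, 10.46 and 10.14 with the luciferase hairpin, 8.97 and 8.67 with hairpin 1, and 8.71 and 8.66 with hairpin 2. Its mean over both hairpins fell by 1.57 ± 0.105 (SE) on the log2 scale (limma, Benjamini-Hochberg adjusted p = 0.000116). The array medians lay between 6.03 and 6.07 over 1201338 probe sets. The deposited values came from RMA, which sets all arrays to a common distribution, so a change in total RNA per cell would not appear in them. Since the arrays measured RNA of a whole population, fewer cells in a phase of the cycle and less RNA per cell cannot be told apart. All 10 embryonic stem cell markers tested, Nanog, Pou5f1 and Sox2 among them, were measured, and none was called different (median difference -0.06). Of the markers of fibroblasts, a possible feeder layer, 12 of 13 were tested and none was called (median difference -0.12). Their part in the results was not tested.

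None of the 45 cell cycle genes passed the test when both Mettl3 hairpins were compared with luciferase, at a limma adjusted p below 0.05 over all genes. In the same fit 1292 of 16353 genes were called, 7.9%, of which 904 were higher and 388 lower (696 and 703 after centring each array). At an unadjusted p below 0.05 there were 5 members, 11.1% of them, against 24.2% of all genes. The median size of the difference was 0.07 over the members and 0.12 over all genes. The 95% intervals, taken gene by gene without adjustment and from this gene summary alone, lay within ±0.5 for 43 of the 45 genes. They lay within ±1 for all 45. The lowest bound was -0.52, for Bub1b, and the highest 0.51, for Cdk6. None of the 45 had all 4 knockdown arrays above all 3 luciferase arrays, an arrangement found in 13.4% of all genes. The opposite arrangement, all 4 below, was found in 5 members, Mcm2, Ccna2, Top2a, Bub1b and Kif11, or 11.1%, against 8.4% of all genes.

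**Figure D2:**
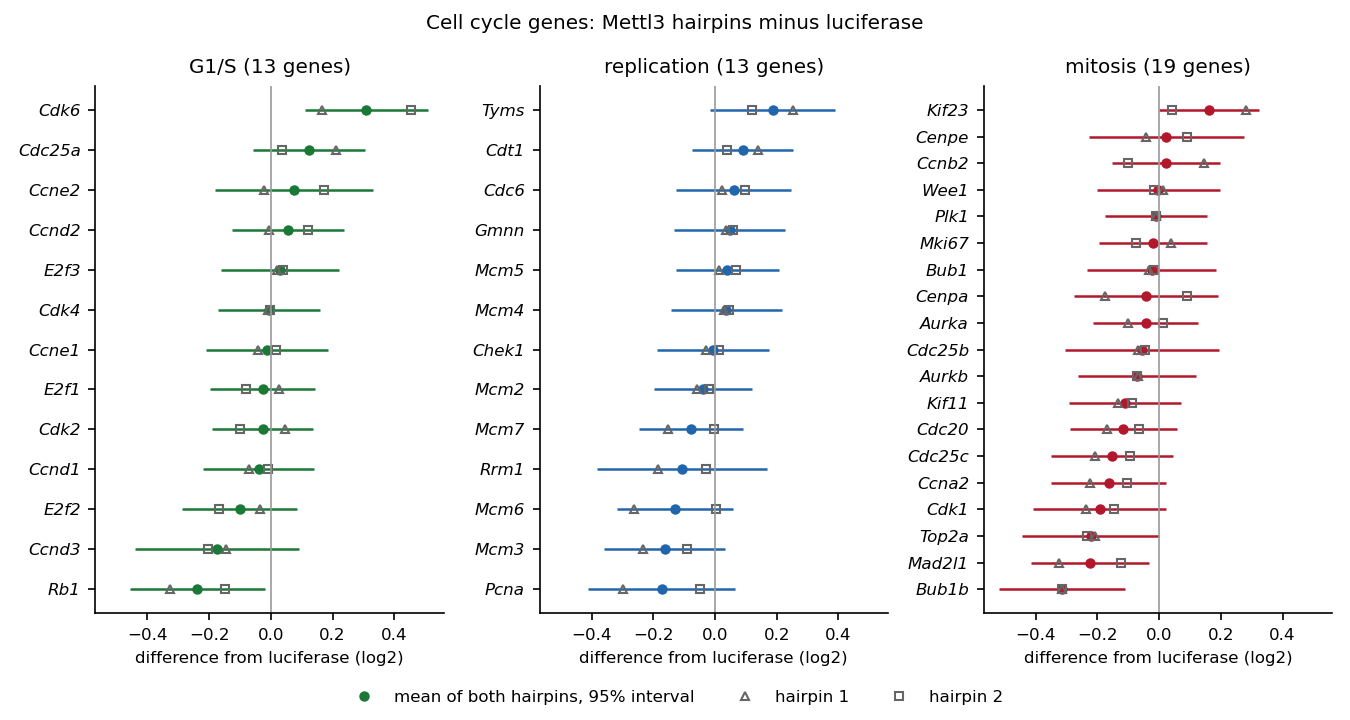
Difference from luciferase (log2, x axis) for each of the 45 genes, ordered within G1/S, replication and mitosis; filled circles are the mean of both Mettl3 hairpins with its 95% interval, triangles hairpin 1 and squares hairpin 2. The 3 largest differences are those of Bub1b (-0.31), Cdk6 (0.31) and Rb1 (-0.24), and 16 of the 19 mitotic genes lie below 0.

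Taken 1 hairpin at a time, against the same 3 luciferase arrays, hairpin 1 gave no call among the members, against 5.89% of all genes, with 7 members (15.6%) and 22.2% of all genes at an unadjusted p below 0.05. Hairpin 2 gave 1 call, Cdk6, or 2.22% of the members, against 3.79% of all genes. The hairpins themselves differed in 0 members, and in 17 genes in all, 0.104%. Without adjustment 4 members, Kif23, Cdk6, Mcm6 and Ccnb2, had p below 0.05 in that contrast (8.89%, against 8.78% of all genes), with the smallest limma adjusted p at 0.494. Mcm6 had a difference of -0.26 for hairpin 1 and 0.00 for hairpin 2, and cyclin B2 (Ccnb2), a partner of the mitotic kinase Cdk1, 0.14 and -0.10.

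The 13 G1/S genes, all of them tested, had a median difference of -0.01, with 8 of 13 below 0 (all genes: median 0.00, 49.9% below 0). They comprise the kinases Cdk2, Cdk4 and Cdk6, the D and E cyclins, E2f1, E2f2, E2f3, Rb1 and the phosphatase Cdc25a, which removes inhibitory phosphates from Cdk2. Cdk6, a kinase that cyclin D activates, had the largest difference of the phase. Its gene values were 9.09, 9.20 and 9.02 with luciferase, 9.36 and 9.17 with hairpin 1, and 9.47 and 9.65 with hairpin 2. Both hairpin 2 arrays lay above every luciferase array, while 1 hairpin 1 array lay within their range. Cdk6 rose with hairpin 2, by 0.46 ± 0.106 (SE) or 1.37-fold (limma adjusted p = 0.0474). Its difference was 0.16 with hairpin 1 (limma adjusted p = 0.407) and 0.31 ± 0.0891 over both hairpins (limma adjusted p = 0.0639). The hairpins differed from each other by -0.29 ± 0.117, hairpin 1 minus hairpin 2, with an adjusted p of 0.504 from limma. The call with hairpin 2 was just inside the threshold and was lost when any 1 of the 3 luciferase arrays (adjusted p of 0.136 without replicate 1, 0.0588 without replicate 2 and 0.118 without replicate 3, limma) or either hairpin 2 array (0.121 without replicate 1 and 0.369 without replicate 2, limma) was left out.

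Rb1, which holds E2F factors inactive until it is phosphorylated, was at 8.56, 8.64 and 8.41 with luciferase, 8.37 and 8.05 with hairpin 1, and 8.42 and 8.36 with hairpin 2. The lowest luciferase array and the highest hairpin 2 array were nearly equal, so the groups met. The difference was -0.24 ± 0.0980 (SE), with a limma adjusted p of 0.173. Cyclin D3 (Ccnd3) was at 10.41, 10.08 and 10.60 with luciferase, the widest spread but 1 among the 45 genes, against 10.16 and 10.27 with hairpin 1 and 10.21 and 10.11 with hairpin 2. The 4 knockdown arrays lay inside the luciferase range, and the difference was -0.18 ± 0.119 (SE; limma adjusted p = 0.40). The other 10 G1/S genes had differences between -0.10 (E2f2) and 0.12 (Cdc25a). Among them Cdk4 was at -0.01, Cdk2 at -0.03, cyclin D1 (Ccnd1) at -0.04, cyclin E1 (Ccne1) at -0.01 and E2f1 at -0.03, each with an unadjusted p above 0.6.

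Of the 14 replication genes 13 were tested, with a median difference of -0.01 and 7 of 13 below 0. Rrm2, the small subunit of ribonucleotide reductase, had a single kept probe set, whose difference was -0.01, and got no gene value. The largest difference was that of Tyms, thymidylate synthase, which makes the thymidine nucleotide for DNA. Tyms was at 10.59, 10.51 and 10.77 with luciferase, 10.78 and 10.97 with hairpin 1, and 10.75 and 10.74 with hairpin 2. Its luciferase replicate 3 lay above both hairpin 2 arrays, and the difference of 0.19 ± 0.0910 (SE) had a limma adjusted p of 0.245. Pcna, the sliding clamp of the replicative polymerases, was at 12.41, 12.53 and 12.21 with luciferase, 12.25 and 11.92 with hairpin 1, and 12.35 and 12.31 with hairpin 2, so the groups overlapped. Its difference was -0.17 ± 0.107 (SE; limma adjusted p = 0.359), and 1 array, hairpin 1 replicate 2, was the lowest. Mcm3 was at 11.56, 11.59 and 11.44 with luciferase, 11.39 and 11.20 with hairpin 1, and 11.52 and 11.36 with hairpin 2. The groups overlapped here too, at a difference of -0.16 ± 0.0877 (SE; limma adjusted p = 0.293).

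**Figure D3:**
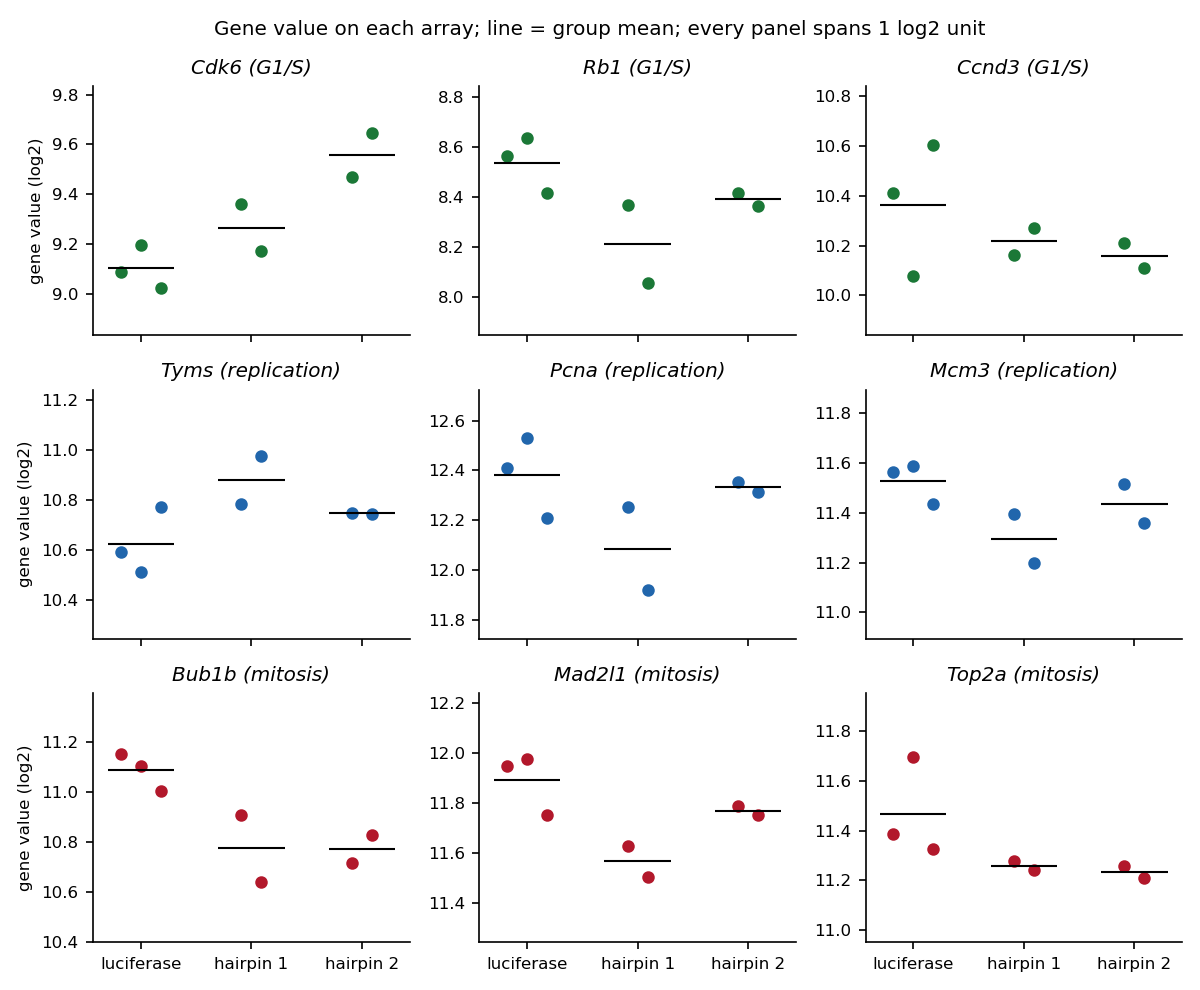
Gene value (log2, y axis) on each of the 7 arrays for the 3 genes of each phase with the largest differences; points are arrays, lines are group means, and every panel spans 1 log2 unit. Bub1b and Top2a have all 4 knockdown arrays below the 3 luciferase arrays, and both hairpin 2 arrays of Cdk6 lie above its luciferase arrays.

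The 6 genes of the Mcm2-7 helicase did not share a direction in their gene values. The helicase is loaded at origins in G1 and unwinds DNA in S phase. Mcm4 and Mcm5 were at 0.04 each, and Mcm2 at -0.04, Mcm7 at -0.08, Mcm6 at -0.13 and Mcm3 at -0.16. Mcm4 and Mcm5 each took the opposite sign in 4 of 19 settings. The median difference over single probe sets was below 0 for all 6, at -0.06 for Mcm4 (16 of 25 below 0) and -0.02 for Mcm5 (13 of 21). Mcm2 had its 4 knockdown arrays below the 3 luciferase arrays, but at a difference of -0.04 beside a luciferase SD of 0.0148 (n = 3), and its limma adjusted p was 0.782. The loading factors Cdc6 and Cdt1 were at 0.06 and 0.09, and geminin (Gmnn), which inhibits Cdt1, at 0.05. Chek1, the kinase that halts the cycle at stalled forks, was at -0.01, and Rrm1, the large subunit of ribonucleotide reductase, at -0.11. None of the 13 passed in any of the 4 contrasts.

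The mitotic genes had the median farthest from 0 of the 3 phases, -0.06, with 16 of 19 below 0 (84.2%), and none of them was called. This order turned without hairpin 1 replicate 2, when the replication genes, at 0.03, lay farther from 0 than the mitotic genes, at -0.01 with 12 of 19 below 0. Of the 5 members with all 4 knockdown arrays below the luciferase arrays, 4 were mitotic genes. That is 21.1% of the 19 tested, against 8.4% of all genes. The share was 7.69% of replication genes and 0% of G1/S genes, but 30% of the 10 embryonic stem cell markers. Bub1b had the largest difference. Its values were 11.15, 11.11 and 11.00 with luciferase, 10.91 and 10.64 with hairpin 1, and 10.72 and 10.83 with hairpin 2, with no overlap between knockdown and control. The difference was -0.31 ± 0.0909 (SE), which is a ratio of 0.804 with a 95% interval of 0.699 to 0.926, at a limma adjusted p of 0.0653. Hairpin 1 and hairpin 2, set against the same luciferase arrays, each gave -0.31, with limma adjusted p of 0.127 and 0.150.

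Mad2l1, which encodes Mad2, the protein that holds back the anaphase-promoting complex until chromosomes are attached, was at 11.95, 11.98 and 11.75 with luciferase, 11.63 and 11.51 with hairpin 1, and 11.79 and 11.75 with hairpin 2. The hairpin 2 arrays met the lowest luciferase array, and the difference was -0.22 ± 0.0856 (SE; limma adjusted p = 0.146). Top2a was at 11.39, 11.69 and 11.33 with luciferase, 11.28 and 11.24 with hairpin 1, and 11.26 and 11.21 with hairpin 2. All 4 knockdown arrays lay below the luciferase arrays, with the gap set by luciferase replicate 3, and the difference was -0.22 ± 0.0991 (SE; limma adjusted p = 0.206). The other 16 tested mitotic genes ran from -0.19 for Cdk1, the kinase that drives entry into mitosis (limma adjusted p = 0.257), to 0.16 for Kif23 (0.211). Cyclin A2 (Ccna2), which activates Cdk2 and Cdk1, was at -0.16, the phosphatase Cdc25c at -0.15, the anaphase activator Cdc20 at -0.12 and the spindle motor Kif11 at -0.11. The kinases Plk1, Aurka, Aurkb, Bub1 and Wee1 were at -0.01, -0.04, -0.07, -0.02 and 0.00, and the proliferation marker Mki67 at -0.02. Cyclin B1 (Ccnb1) had no probe set by symbol and was not measured here. Cdk1 was found only under its older symbol Cdc2a, with 10 probe sets.

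The small shift of the mitotic genes was not even across arrays. Taking each gene's difference from its luciferase mean, the median over the 19 genes was 0.02, 0.05 and -0.08 on the luciferase arrays, -0.05 and -0.17 on hairpin 1, and -0.09 and -0.05 on hairpin 2. Luciferase replicate 3 was lower than 1 hairpin 1 array and 1 hairpin 2 array on this measure. The same median over the 13 replication genes was 0.01, 0.02 and -0.03, then 0.03 and -0.06, then 0.03 and 0.02, and over the 13 G1/S genes 0.04, 0.02 and -0.08, then 0.03 and -0.05, then -0.04 and 0.02. In each phase luciferase replicate 3 was the lowest control and hairpin 1 replicate 2 the lower hairpin 1 array. The same held over all 16353 genes. Their median was 0.02, 0.01 and -0.03 on the luciferase arrays, 0.02 and -0.02 on hairpin 1, and 0.00 and 0.03 on hairpin 2. Over all 19 settings the median difference of the mitotic genes ranged from -0.13 to -0.01 with 12 to 18 of 19 below 0.

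The 45 members and Rrm2 were measured by 866 kept probe sets, and these allow each gene to be read along its exons. No single probe set of a member passed the test for both hairpins, against 2.15% of 234924 probe sets, and 10.0% of the members' probe sets against 18.1% of all had an unadjusted p below 0.05. With hairpin 1 alone 1 of the 866 was called, in Kif23 (0.54 ± 0.0953, limma adjusted p = 0.0493), against 1.27% of all probe sets. For Bub1b 24 of 24 probe sets had a difference below 0, for Rb1 24 of 24, for Ccnd3 18 of 18, for Pcna 14 of 14 and for Mad2l1 11 of 11. For Top2a it was 42 of 46. For Cdk6 26 of 27 were above 0, and for Cdc6 14 of 14, at a gene difference of 0.06. Other members were mixed, such as Bub1 with 16 of 30 below 0 and Plk1 with 7 of 14. The share of all genes whose probe sets lay on 1 side of 0 was not counted. Probe sets of a gene share the same 7 RNA samples and are not replicates.

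**Figure D4:**
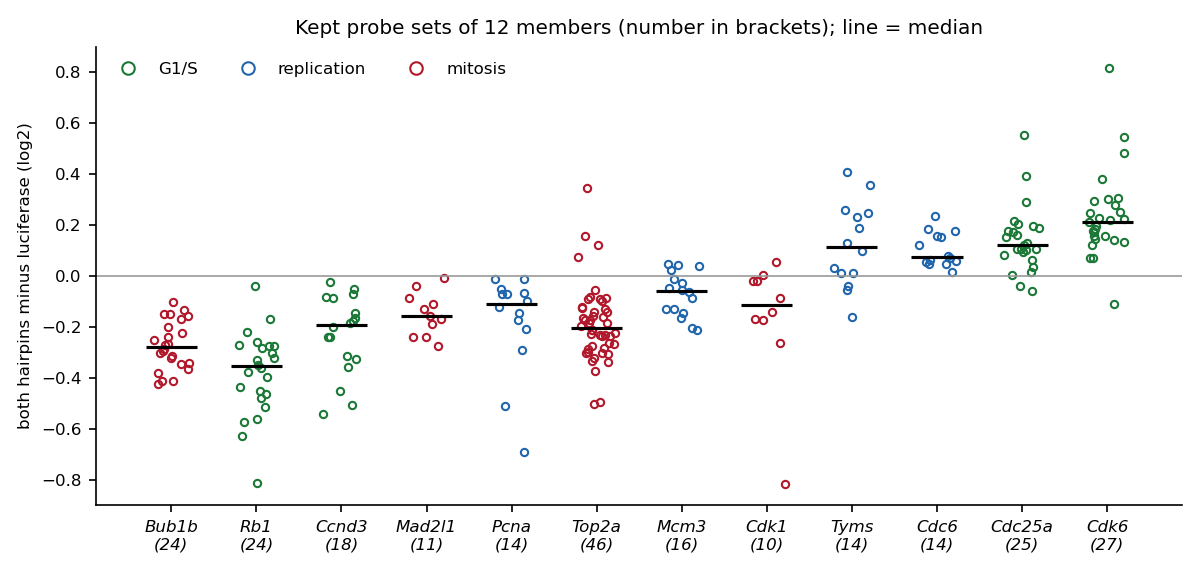
Difference of both Mettl3 hairpins from luciferase (log2, y axis) for every kept probe set of 12 members; open circles are probe sets, lines their medians, and the number of probe sets is in brackets. All 24 probe sets of Bub1b lie below 0 and 26 of 27 of Cdk6 above it, while the 10 of Cdk1 run from -0.82 to 0.05.

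A test of exon usage asks whether probe sets of a gene differ from the rest of that gene. Its F test (limma's diffSplice) called 0 of the 45 members, against 4.97% of all genes. Cdk1 and Cenpa, the centromeric histone variant, had an unadjusted p below 0.05, which is 4.44% of members against 15.5% of all genes. The matching test of single probe sets against their gene called 4 of 865, or 0.462%, against 0.685% of all. They were 1 each in Mcm2 (0.36, diffSplice adjusted p = 0.0115), Mcm7 (0.36, adjusted p = 0.0448), Cenpa (-0.67, adjusted p = 0.0357) and Cdk1 (-0.73, adjusted p = 0.0282). The probe set of Cdk1 was at 9.47, 10.48 and 9.37 with luciferase, 9.11 and 8.01 with hairpin 1, and 9.38 and 9.31 with hairpin 2. A high luciferase replicate 2 and a low hairpin 1 replicate 2 stood apart from the other arrays. The call was lost without either of them (adjusted p of 0.391 and 0.289, diffSplice), and also without luciferase replicate 1 (0.0676) or either hairpin 2 array (0.151 without replicate 1 and 0.250 without replicate 2). The other 3 also lost their calls, Mcm2 without luciferase replicate 3, hairpin 1 replicate 2 or either hairpin 2 array, Cenpa without 5 of the 7 arrays in turn, and Mcm7 without 6 of them.

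The wider machinery was read from 9 further lists that held 126 genes, 119 of them tested. There were 3 calls for both hairpins, 2 higher and 1 lower, which is 2.52% of the 119 against 7.9% of all genes. Spc24, a subunit of the Ndc80 complex that ties kinetochores to microtubules, rose by 0.45 ± 0.0780 (SE; limma adjusted p = 0.00826). It was at 10.02, 9.87 and 10.03 with luciferase, 10.47 and 10.46 with hairpin 1, and 10.34 and 10.41 with hairpin 2, with no overlap. For both hairpins it was called in all 19 settings, but with hairpin 1 alone in 15 of 19 and with hairpin 2 alone in 7 of 19. Its partners in the same complex were at -0.30 (Spc25), -0.21 (Ndc80) and -0.12 (Nuf2), none called. Cenpi, a subunit of the inner kinetochore, rose by 0.36 ± 0.0845 (SE; limma adjusted p = 0.0321). It was at 6.63, 6.69 and 6.61 with luciferase, 6.87 and 6.95 with hairpin 1, and 6.97 and 7.20 with hairpin 2, values from only 3 probe sets near the level of the filter, and it was called in 7 of 18 settings. Gins2, a subunit of the GINS complex that joins the Mcm helicase at the fork, fell by 0.30 ± 0.0739 (SE; limma adjusted p = 0.0352). It was at 10.44, 10.46 and 10.51 with luciferase, 10.20 and 10.13 with hairpin 1, and 10.14 and 10.20 with hairpin 2, without overlap, and yet the call was lost when any single array was left out, at differences of -0.32 to -0.29.

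No other list held a call. Among 9 inhibitors of cyclin-dependent kinases and Rb1 relatives 7 were below 0, with a median of -0.12, and the largest difference was that of the Cdk4 and Cdk6 inhibitor Cdkn2b (-0.20, limma adjusted p = 0.209). The other 7 E2F and DP factors had 3 below 0, with the repressor E2f8 at -0.26 (0.139). Of 14 genes for origin licensing and firing 9 were below 0 (11 with hairpin 1 and 6 with hairpin 2), and of 18 fork genes 10, with the polymerase epsilon subunit Pole2 at -0.33 (0.125). Of 19 ubiquitin ligase genes 13 were above 0 (8 with hairpin 1 and 13 with hairpin 2), with Anapc10, a subunit of the anaphase-promoting complex, at 0.37 (0.0850). Of 14 kinetochore genes 9 were below 0, of 16 spindle and cytokinesis genes 10, with the spindle kinesin Kif15 at -0.26 (0.103), and of 12 cohesin, condensin and separase genes 8, with the condensin subunit Ncaph at -0.31 (0.162). The 10 DNA damage checkpoint genes were split evenly, with Hus1, of the checkpoint clamp, at -0.19 (0.176). The p-values in brackets are limma adjusted p over all genes.

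The count of 0 calls among the members depended on the settings of the analysis. For both hairpins the number called ran from 0 to 3 of 45 over 19 settings, or 0 to 6.67%, while the share of all genes called ran from 2.42% to 18.6% in the same settings. Bub1b was called in 8 of the 19, at differences between -0.38 and -0.25, and its lowest limma adjusted p was 0.0167. Rb1 was called in 4, between -0.39 and -0.16, Ccnd3 in 3, between -0.32 and -0.06, and Cdk6 in 1, between 0.17 and 0.36. These 4 kept their direction in every setting, and no other member was called for both hairpins in any of the 19. With hairpin 1 alone Mad2l1 and Kif23 were each called in 3 settings, besides Bub1b, Rb1 and Ccnd3.

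**Figure D5:**
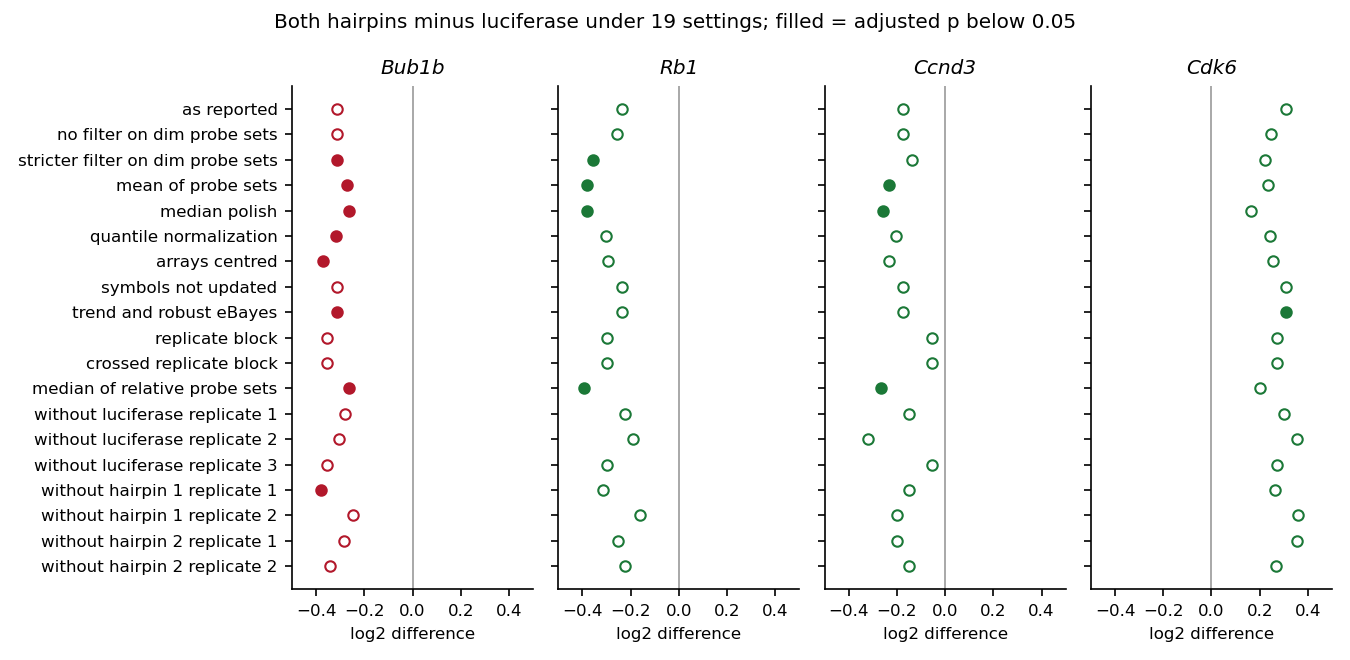
Difference of both Mettl3 hairpins from luciferase (log2, x axis) for Bub1b, Rb1, Ccnd3 and Cdk6 under 19 settings of the analysis (rows); filled points have a limma adjusted p below 0.05. Bub1b is filled in 8 rows, Rb1 in 4, Ccnd3 in 3 and Cdk6 in 1, and no point changes sides of 0.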

How the data were processed

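Total RNA of 7 samples was measured on exon arrays. The authors deposited log2 values for 1201338 probe sets, made with RMA in R 2.11.1 per the submitters' processing notes; no further setting is given in the sources used here. GEO's platform annotation gave 311384 probe sets 1 symbol, 6385 several and 883569 none. The old symbols of 45560 probe sets were updated through RefSeq. Probe sets with several symbols were left out.

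A gene's value on an array is the median of its probe sets whose mean over the 7 arrays exceeded the median of all probe sets (6.02), with at least 3 such probe sets. Group means were fitted to all 7 arrays with limma 3.58.1 (lmFit and eBayes, R 4.3.3), and p-values were adjusted by Benjamini-Hochberg over 16353 genes. A gene was called at an adjusted p below 0.05. Exon usage was tested with diffSplice. The scripts were tested on simulated data. Members, lists and tests were chosen with earlier results of these data known. Values per array are given for members called in a contrast and for the 3 largest differences of each phase. For each wider list up to 2 called genes, or the largest difference, are given. Others were named after their values were seen, or to account for the members. The replicate numbers were not treated as pairs, since the deviations of samples with the same number correlated at 0.08 at most. The alternatives were other filters, gene summaries, normalizations, spread models, a replicate block and leaving out each array.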

Additional observations from a re-analysis of the deposited data

How the results depend on the processing

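With both hairpins against luciferase, the 1292 genes called became 484 with no filter on dim probe sets, 2840 with the mean of probe sets, 2469 with median polish, 3042 with the median of relative probe sets, and 605 to 1098 without 1 array in turn. For hairpin 1 the 964 genes became, in the same order, 320, 2259, 2072, 2387 and 271 to 729, with 1503 under a stricter filter. For hairpin 2 the 619 became 92, 1626, 1439, 1767 and 63 to 577, with 1072 under the stricter filter. Between the hairpins the 17 became 0, 79, 76, 89 and 0 to 4, with 36 under the stricter filter, 29 with a trended and robust spread and 2 with only their own 4 arrays.

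For both hairpins 0 members were called as reported, and 2 (Bub1b and Rb1) were called under the stricter filter, 3 (Bub1b, Ccnd3 and Rb1) with the mean, median polish or relative probe sets, 1 (Bub1b) with quantile normalization or centred arrays, 2 (Bub1b and Cdk6) with the trended and robust spread, and 0 to 1 without 1 array (Bub1b without hairpin 1 replicate 1). For hairpin 1 the 0 members became 2 under the stricter filter (Mad2l1 and Rb1), the mean (Bub1b and Rb1), centring (Bub1b and Mad2l1) or the trended and robust spread (Kif23 and Mad2l1), 4 with median polish or relative probe sets (Bub1b, Ccnd3, Kif23 and Rb1), and 0 without any 1 array. For hairpin 2 the single call became 0 under no filter or the stricter filter, 2 with relative probe sets and 0 to 1 without 1 array, and with the mean or median polish it was Ccnd3 in place of Cdk6. No member was called between the hairpins in any setting. Single probe sets of members, 0 as reported, numbered 11 under the stricter filter and 22 with the trended and robust spread. Exon usage was called in 1 member (E2f2) with no filter and in 0 to 4 without 1 array. No called member reversed.

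The replicate block, with the number as a term, gave 540, 460, 208 and 3 genes in these 4 comparisons and 0 members in each. The correlations of same-numbered arrays, after centring each group, were 0.01, -0.01, -0.26, 0.08, -0.18 and -0.18. In a group of 2 arrays the deviations mirror each other, so these values are not separate checks. Some arrays with different numbers correlated more. Luciferase replicate 2 with hairpin 1 replicate 1 was at 0.26, and luciferase replicate 3 with hairpin 1 replicate 2 at 0.28. Whether arrays shared a batch was not tested. A crossed block, with the replicate numbers of hairpin 1 alone swapped, gave 956 genes for both hairpins, 3 between them, and 0 members for hairpin 2. The relative probe set summary, the crossed block, and the repeats for Cdk6, the wider genes and single probe sets against their gene were added after the data were seen. With 2 or 3 arrays a group, the median 95% interval of a member reached 0.19 either side, which limits what could be called.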
